A study of Mus musculus with 2 samples.

Results

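The cytosolic ribosomal protein genes, which encode the protein part of the ribosomes that translate nuclear messages, were followed through 2 single-cell RNA libraries of mouse kidney. Members were chosen by gene symbol: Rpl or Rps followed by a digit, together with Rplp0, Rplp1, Rplp2 and Rpsa. Pseudogene rows, the Rps6k kinases and the p53 target Rps27l were left out. This gave 85 members of the 32285 genes in the count tables. Of these, 43 encode proteins of the large subunit, 31 encode proteins of the small subunit and 3 encode the stalk of the large subunit. A further 7 are paralogs (Rpl3l, Rpl7l1, Rpl10l, Rpl22l1, Rpl36al, Rpl39l and Rps27rt), and Rps19bp1 is a binding partner of a ribosomal protein that the symbol rule also takes in.

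Male C57BL6/J mice aged 10 to 12 weeks received saline or cisplatin, a platinum drug that injures the kidney tubule, at 20 mg/kg, and kidneys were taken at 72 h. Per the series' design text, 5 mice were used and 10 kidneys went into each condition, so every library is a pool of animals. Cells were enriched with magnetic beads for CD31 and then for podoplanin, and transcripts were counted by their 3' ends as unique molecular identifiers (UMIs). The labels name lymphatic endothelial cells, but in the barcodes with endothelial markers the lymphatic list held only 41 UMIs in saline and 93 in cisplatin, and Mmrn1, Reln and Ccl21a were at 0 in both.

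A ribosome joins its 2 subunits around a messenger RNA, and each subunit is a ribosomal RNA core wrapped in proteins, most of them present once per ribosome. The genes are transcribed strongly in most cells, and many of their messages start with a run of pyrimidines (the 5' terminal oligopyrimidine tract) through which growth signals control their translation. Several members have a further role: Rpl5 and Rpl11 hold the Mdm2 ligase back when ribosome assembly fails, Rps6 is phosphorylated by the S6 kinases, and Rps27a is made as a fusion with ubiquitin. In single-cell counts they are among the most abundant messages.

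The libraries held 5879496 UMIs in saline and 19994105 in cisplatin, and the members took 4.57% and 3.31% of them. There were 630 barcodes of 500 or more UMIs in saline and 3441 in cisplatin, with 0 shared between the libraries. A barcode was placed in a marker gate when it held at least 3 UMIs of at least 2 genes of a cell type list and more UMIs of that list than of any other. Barcodes of 1 to 100 UMIs served as the profile of free RNA, transcripts that are in the cell suspension outside intact cells. Each treatment had 1 library, so differences have no replicate check and no p-value is given: intervals are exact (Clopper-Pearson) at 95% and cover counting error only. A member was called higher or lower in a comparison when its CPM (UMIs scaled to the usual fixed library total) differed at least 1.5-fold and the interval of the ratio left out 1, given at least 20 UMIs in the pair of sums. Throughout, 82 of the 85 members passed that minimum in the main comparisons, and Rpl3l, Rpl10l and Rpl39l did not.

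C and T runs near the annotated start site were more frequent among the core subunit genes than among all genes. Close to 1 in 2 of the core genes examined had none of 8 bases or more. A RefSeq promoter (GRCm38.p6) was matched for 65 of the 85 members. In the window from 30 bases before to 20 after the start, an unbroken run of at least 8 C or T bases on the coding strand was found in 29 of 57 core subunit genes (50.9%), against 22.9% of all genes. Runs of at least 10 were found in 40.4% and 11.1%. A run was counted wherever it lay in that window, so these are not counts of messages that start with the tract. In the whole window of 300 bases on either strand, the letters CCGGAAG were found in 42.1% of the core genes against 9.93% of all genes, GCCATNTT in 19.3% against 6.96% and TATAAA in 10.5% against 15.7%. The 6 windows below belong to members whose counts are described further on, and the capitals mark the longest C and T run of each.
Rpl15 (chr14:18270967-18271016, minus strand): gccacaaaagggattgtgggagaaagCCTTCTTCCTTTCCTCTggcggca
Rpl13a (chr7:45128726-45128775, minus strand): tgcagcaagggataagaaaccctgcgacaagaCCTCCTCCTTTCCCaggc
Rps6 (chr4:86857348-86857397, minus strand): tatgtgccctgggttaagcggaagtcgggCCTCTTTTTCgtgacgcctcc
Rpl22l1 (chr3:28805478-28805527, plus strand): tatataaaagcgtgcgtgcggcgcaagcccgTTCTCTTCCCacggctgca
Rplp0 (chr5:115559437-115559486, plus strand): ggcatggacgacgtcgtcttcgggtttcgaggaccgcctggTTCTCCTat
Rps23 (chr13:90923092-90923141, plus strand): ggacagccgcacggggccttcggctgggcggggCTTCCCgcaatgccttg
The runs of Rpl15, Rpl13a, Rps6 and Rpl22l1 hold 17, 14, 10 and 10 bases, while those of Rplp0 and Rps23 at these annotated starts hold 7 and 6.

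Ribosomal protein messages took a smaller share of the UMIs in cisplatin than in saline where endothelial markers led, and a small share in both where proximal tubule markers led. Over all barcodes of 500 or more UMIs with at most 20% mitochondrial (mt-) UMIs, the share was 13.5% in saline (627 barcodes) and 8.25% in cisplatin (1729 barcodes), a ratio of 0.612. Of the 82 tested members 49 were lower and 1 higher, where 15.3% and 25.8% of all genes were. Most saline barcodes of that set were in the endothelial gate (450), while most cisplatin barcodes were in the proximal tubule gate (1206), so the 2 sums hold different cell types and the ratio was taken apart by gate. In the endothelial gate the share was 14.8% in saline and 10.1% in cisplatin, giving a ratio of 0.680 (0.674 to 0.685). Single barcodes overlapped: the quartiles were 9.01% and 16.2% in saline and 5.29% and 12.6% in cisplatin, with medians of 12.3% and 8.66%. In the proximal tubule gate the share was 2.51% (140 barcodes) and 2.82% (1206 barcodes), a ratio of 1.12. Those values lie close to free RNA, where the members took 2.35% in saline and 2.87% in cisplatin. Over single barcodes of the proximal tubule gate the median was lower in cisplatin, at 2.14% in saline and 1.92% in cisplatin. The 11 cisplatin barcodes of that gate with 4000 or more UMIs had a share of 7.64%, and no saline barcode of the gate was that deep. The highest share belonged to the leukocyte gate, at 24.3% over 73 cisplatin barcodes, where saline gave only 3 barcodes.

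**Figure D1:**
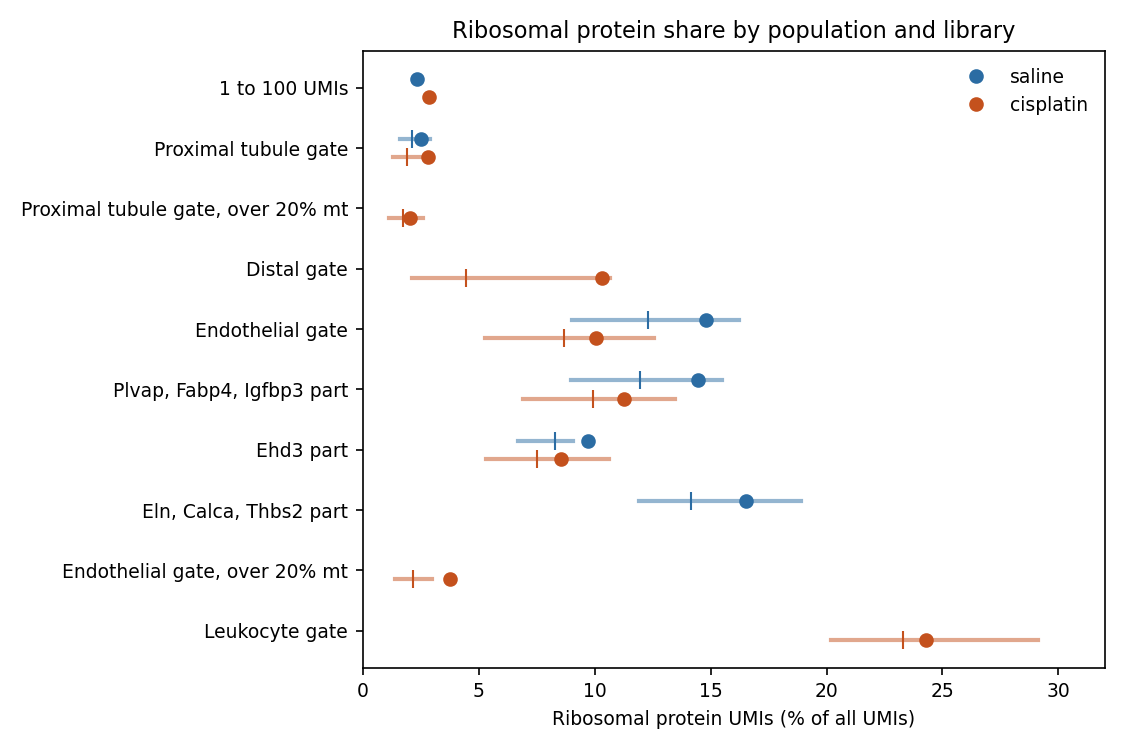
Share of ribosomal protein UMIs (x axis, % of all UMIs) in each population (rows) for saline and cisplatin, with the pooled share as a dot, the median over barcodes as a tick and the quartiles as a bar; groups under 20 barcodes are left out and free RNA has only a dot. The endothelial dots sit at 14.8% and 10.1%, the proximal tubule dots at 2.51% and 2.82% beside free RNA, and the leukocyte dot at 24.3%.

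Within the endothelial gate the share depended on the kind of vessel gene that led. Barcodes led by Ehd3, a gene of glomerular capillaries, had the lower share in both libraries, at 9.70% in saline (24 barcodes) and 8.55% in cisplatin (27 barcodes), a ratio of 0.881. Barcodes led by Plvap, Fabp4 and Igfbp3, genes of fenestrated and other capillaries outside the glomerulus, had 14.5% (313 barcodes) and 11.3% (116 barcodes), a ratio of 0.780. Barcodes led by Eln, Calca and Thbs2 had 16.5% over 52 saline barcodes, and cisplatin held only 3 of them. Ehd3-led barcodes gave 327990 of the 923426 gate UMIs in cisplatin and 37893 of 963391 in saline. Of these Ehd3-led cisplatin UMIs, 116215 came from a single barcode, described below. The ratio was nearer to 1 in the parts led by Ehd3 and by Plvap, Fabp4 and Igfbp3 than over the gate (0.680). It was 0.616, farther from 1, in the part led by Eln, Calca and Thbs2, a value that rests on only 3 cisplatin barcodes. The part of the vessel mix in the gate's ratio was not tested. These parts were defined after first values had been seen.

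Markers of other cells moved with the same contrast. In the endothelial gate the 20 endothelial markers summed to 15392.5 CPM in saline and 15420 in cisplatin. The podocyte list summed to 327 and 991 CPM (10 of 10 genes detected in both), the proximal tubule list to 307 and 708 (16 and 17 of 17 genes) and the distal tubule and collecting duct list to 90.3 and 1758 (10 and 15 of 15 genes). The leukocyte list summed to 17.6 and 66.1 CPM (6 and 12 of 15 genes). The part of these other cells in the ribosomal protein ratio was not tested beyond the subsets that follow, which were chosen after seeing the data. One cisplatin barcode of 116215 UMIs gave 12.6% of the gate's UMIs and held 1371 endothelial and 1019 distal UMIs. Most of the distal list UMIs of the cisplatin gate thus came from this single barcode. No doublet caller was run here. Without the deepest barcode of each library the ratio was 0.697 and 31 members were lower in place of 37. Among barcodes with at least 90% of their marker UMIs from the endothelial list, the shares were 14.9% (363 barcodes) and 9.89% (84 barcodes), a ratio of 0.663. Without barcodes holding any UMI of the podocyte list it was 0.878, over 297 saline and 112 cisplatin barcodes with median depths of 908 and 843.5 UMIs; Synpo and Thsd7a gave 254 of the 315 podocyte list UMIs in the saline gate. All 3 ratios were below 1, and their size depended on which barcodes were kept.

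Among the members, lower calls far outnumbered higher ones in the endothelial gate of cisplatin, and 44 members passed neither limit. Of 82 members with enough UMIs, 37 were called lower and 1 higher, where 9.90% and 14.0% of all 8795 genes tested were lower and higher. The median log2 ratio was -0.55 over the members and 0.06 over all genes. Lower calls fell on 17 of 43 large subunit genes, 18 of 31 small subunit genes, 0 of 3 stalk genes and 2 of 4 tested paralogs. Among the barcodes with at least 90% endothelial marker UMIs, 42 members were lower and 0 higher, against 10.1% and 10.5% of all genes. In the part led by Plvap, Fabp4 and Igfbp3 the counts were 15 lower and 2 higher, against 10.5% and 9.21%. Without barcodes holding a podocyte list UMI they were 6 and 5, against 12.8% and 7.33%, so there the lower calls were a smaller share of the members than of all genes.

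The largest drops of large subunit genes were those of Rpl30 and Rpl35a. Rpl30 had 2963 UMIs (3076 CPM) in saline and 1262 UMIs (1367 CPM) in cisplatin, giving a ratio of 0.444 (0.416 to 0.475). Rpl35a, one of the genes mutated in Diamond-Blackfan anaemia, had 3314 CPM in saline and 1599 in cisplatin, giving a ratio of 0.483. Among small subunit genes, Rps21 had 3962 CPM in saline and 2048 in cisplatin (ratio 0.517, interval 0.489 to 0.546). In the part led by Plvap, Fabp4 and Igfbp3 all 3 were called lower as well, Rpl30 at 0.520, Rpl35a at 0.563 and Rps21 at 0.591. Rps27a was called lower at 0.526 (2542 CPM in saline and 1337 in cisplatin). Rpl41, which encodes the shortest ribosomal protein, missed the call at 0.682, with 3854 and 2627 CPM.

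Of the 3 stalk genes, 1 was called higher and 0 lower. Rplp0, the scaffold of the stalk that helps elongation factors onto the ribosome, had 606 CPM (584 UMIs) in saline and 959 CPM (886 UMIs) in cisplatin, giving a ratio of 1.58 (1.42 to 1.76), the only higher call in the gate. Its partners did not follow: Rplp1 had 2567 CPM in saline and 2373 in cisplatin (0.924), and Rplp2 had 1640 and 1199 (0.731). Rplp0 was also called higher in the part led by Plvap, Fabp4 and Igfbp3 (1.87) and without barcodes holding a podocyte list UMI (2.66). It was not called at 1.33 (1.15 to 1.53) among the barcodes with at least 90% endothelial marker UMIs. Rpl13a followed at 1.42 (883 CPM in saline and 1253 in cisplatin). Rps15 and Rps6 had ratios of 1.20 each, Rpl5 1.19 and Rpl17 1.18, with intervals above 1 but below the fold needed for a call. Rpl11, the partner of Rpl5 in the 5S particle, had a ratio of 0.949 (1158 CPM in saline and 1099 in cisplatin), Rps2 0.794 and Rpsa 0.860.

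**Figure D2:**
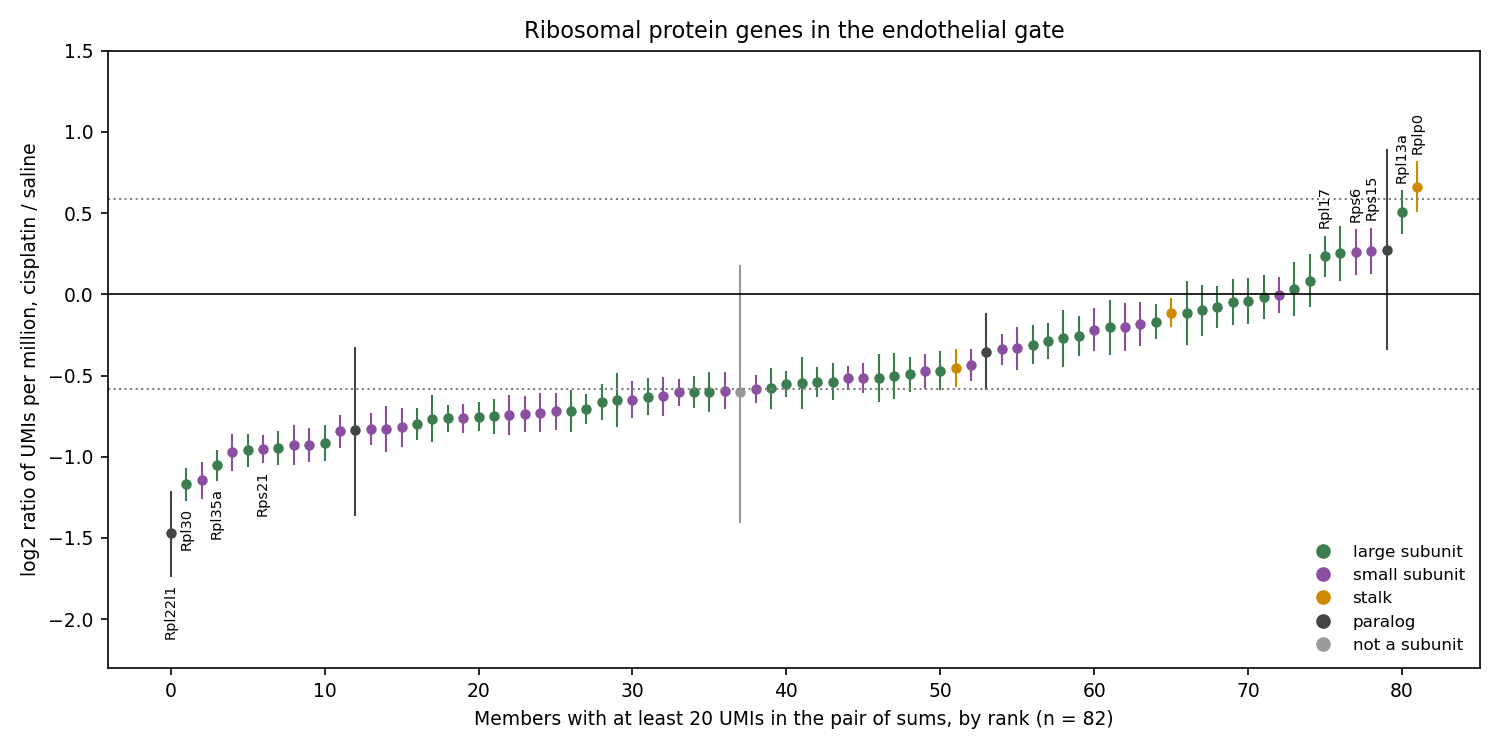
Log2 ratio of CPM in the endothelial gate, cisplatin over saline (y axis), for the 82 members with enough UMIs in order of their ratio (x axis); bars are 95% counting intervals, dotted lines the 1.5-fold limits, colours the roles, and names mark most of the 5 highest and 5 lowest by the interval bound nearest 1. Most points lie below 0, Rpl22l1 is lowest at a ratio of 0.361, and Rplp0 is the only point called higher at 1.58.

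The paralog Rpl22l1 had the lowest ratio of all members. It is a copy of Rpl22 that can take its place in the large subunit. Rpl22l1 (chr3:28805436-28807424) had 508 CPM (489 UMIs) in saline and 183 CPM (169 UMIs) in cisplatin, giving a ratio of 0.361 (0.301 to 0.430). Rpl22 (chr4:152325742-152334071) had 1227 CPM in saline and 721 in cisplatin, giving a ratio of 0.588 (0.534 to 0.647), so both were called lower and their intervals did not overlap. Rpl22l1 was called lower in the subsets as well, at 0.375 in the barcodes with at least 90% endothelial marker UMIs, 0.414 in the part led by Plvap, Fabp4 and Igfbp3 and 0.462 without barcodes holding a podocyte list UMI. The coding sequences of the pair were 69.3% identical, and their last 60 bases, shown to let the pair be compared, are given with the stop codon in capitals (GENCODE M21, coding strand).
Rpl22: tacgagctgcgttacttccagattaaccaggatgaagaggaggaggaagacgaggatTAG
Rpl22l1: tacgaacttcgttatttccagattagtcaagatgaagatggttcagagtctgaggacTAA
Rps27rt, a single-exon copy of Rps27 (chr9:114982366-114982739), was identical to Rps27 over all 255 coding bases, including the last 60. Over the last 100 bases of the annotated transcripts, untranslated ends included, Rps27 and Rps27rt had 67 identical bases in an aligned length of 133. Gaps made up the rest, as the annotated 3' untranslated ends held 54 and 87 bases and so offset the windows. Rpl22 and Rpl22l1 had 54 identical bases in 129, gaps included, with ends of 56 and 84 bases. These windows therefore do not measure how far the ends of a pair differ.
Rps27 and Rps27rt: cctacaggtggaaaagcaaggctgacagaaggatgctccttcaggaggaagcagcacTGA
Rps27rt had 98.6 CPM in saline and 55.2 in cisplatin (0.560), and Rps27 had 3616 and 2382 (0.659); the rule that divided UMIs between the pair was not found in the labels or headers. Rpl36al had a ratio of 0.782 and Rpl7l1, which works in ribosome assembly, 1.21 (0.792 to 1.85). Rpl3l, a paralog of striated muscle, had 0 and 1 UMIs, and Rpl10l and Rpl39l, known from the testis, had 0 in both libraries of the gate. Rps19bp1 had 39.4 and 26.0 CPM (0.659, interval 0.378 to 1.13).

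Genes that work beside the members did not move as a block in the endothelial gate, where 14.0% of all genes were higher and 9.90% lower. Of the other ribosome-bound proteins, Fau, which encodes a small subunit protein fused to a ubiquitin-like one, was lower with 3420 CPM in saline and 1839 in cisplatin (0.538). Rack1, the scaffold on the small subunit, had a ratio of 1.26 and was not called. Of 20 translation factors and other messages with the same start motif, 2 were higher and 4 lower: Vim, an intermediate filament gene, was lower at 0.316 and Hnrnpa1, an RNA-binding protein gene, higher at 1.65. Eef1a1 (0.938) and Tpt1 (0.882) were not called. Of 29 tested ribosome biogenesis genes, 0 were higher and 7 lower, among them Rrs1 at 0.141 (37 and 5 UMIs) and Nop58 at 0.376 (97 and 35 UMIs). Of 75 tested mitochondrial ribosomal protein genes, 4 were higher and 5 lower, and of 86 nuclear genes of the respiratory chain 11 were higher and 3 lower. The higher calls of the respiratory chain genes were thus no more frequent than those of all genes. Of the nuclear RNAs, Malat1 was lower at 0.627 and Neat1 higher at 2.84.

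In the proximal tubule gate more members were higher than lower, from few UMIs in saline. There, 17 of 82 members were called higher and 0 lower, where 3.20% and 4.47% of all 8345 genes tested were. The median log2 ratio was 0.23 over the members and -0.07 over all genes. The saline sum held only 2765 member UMIs over 140 barcodes. Rpl15 had 45.4 CPM (5 UMIs) in saline and 205 CPM (229 UMIs) in cisplatin, giving a ratio of 4.50 (1.90 to 14.0). Rpl32 followed at 2.63 (14 and 374 UMIs), Rps7 at 2.44 (9 and 223), Rps3 at 2.18 (11 and 244) and Rps23, which lies at the decoding centre, at 2.00 (16 and 325). Rplp0 was higher at 1.71 (209 and 357 CPM) and Rps6 at 1.93 (109 and 210 CPM). Rpl38 had the lowest interval, at a ratio of 0.729 (0.582 to 0.923), short of a call, and Rpl22l1 had 0.873 (8 and 71 UMIs). With a minimum of 1000 UMIs per barcode 4 members were higher and 2 lower.

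Some members went in opposite directions in the 2 gates. In all, 8 members were called lower in the endothelial gate and higher in the proximal tubule gate, among them Rps21, Rps3a1, Rpl6, Rpl32, Rps3, Rps7 and Rps18. Of the 6993 genes tested in both gates 27 (0.386%) had this pair of calls. The members' count has to be read against their 37 lower calls in the one gate and 17 higher calls in the other, and whether the overlap differs from what those counts give was not tested. Rps7 had a ratio of 0.597 in the former and 2.44 (1.26 to 5.40) in the latter, with 9 saline UMIs behind the latter. Rps21 had 0.517 and 1.51. Their saline levels in the proximal tubule gate rested on 9 to 30 UMIs each. Rplp0 was called higher in both.

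In the cisplatin library, barcodes with more mitochondrial UMIs held fewer ribosomal protein UMIs. The 1712 barcodes above 20% mt- UMIs had 2.45% against 8.25% in the 1729 below, a ratio of 0.297, and 0.553 when mt- UMIs were left out of the total. All 82 tested members were lower (0 higher), where 58.7% of all genes were lower and 0.575% higher. CPM counts mt- UMIs in its total, and these were 50.9% of the UMIs above the limit and 8.57% below. The split on mt- share thus lowers the CPM of other genes by construction. Without mt- UMIs in the total 67 members were lower, against 12.3% of all genes. Saline had only 3 barcodes above 20% and was not split. Inside the endothelial gate, 99 barcodes above the limit had 3.75% against 10.1%, a ratio of 0.373, or 0.603 of the UMIs that are not mt-. Inside the proximal tubule gate, 782 barcodes had 2.06% against 2.82%, a ratio of 0.729, which turned to 1.17 of the UMIs that are not mt-. The split over all barcodes also changes the mix of gates, with 184 of 1729 barcodes below the limit and 99 of 1712 above it in the endothelial gate.

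A pair of small subunit genes stood at the low end and a set of members at the high end of that split. Rps7 had 825 CPM in the barcodes below 20% and 175 above (0.212), and Rps23 had 1316 and 286 (0.217). Rps15 had 984 and 546 CPM, a ratio of 0.554 (0.513 to 0.598), Rpl13a 1191 and 563 (0.472) and Rpsa 1231 and 559 (0.454). Relative to all UMIs that are not mt-, Rps15 had a ratio of 1.03 and Rpl7l1 one of 1.13. Inside the endothelial gate 76 members were lower, against 22.1% of all genes, and Rps15 (0.772), Rpsa (0.718) and Rpl13a (0.685) were among the 6 not called. Inside the proximal tubule gate 14 were lower, against 36.7% of all genes, which is a smaller share of the members than of all genes. Both counts use CPM with mt- UMIs in the total. The mt- share was 41.9% above the limit and 5.91% below in the endothelial gate, and 44.5% and 10.7% in the proximal tubule gate. These lower calls thus follow in part from the split.

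**Figure D3:**
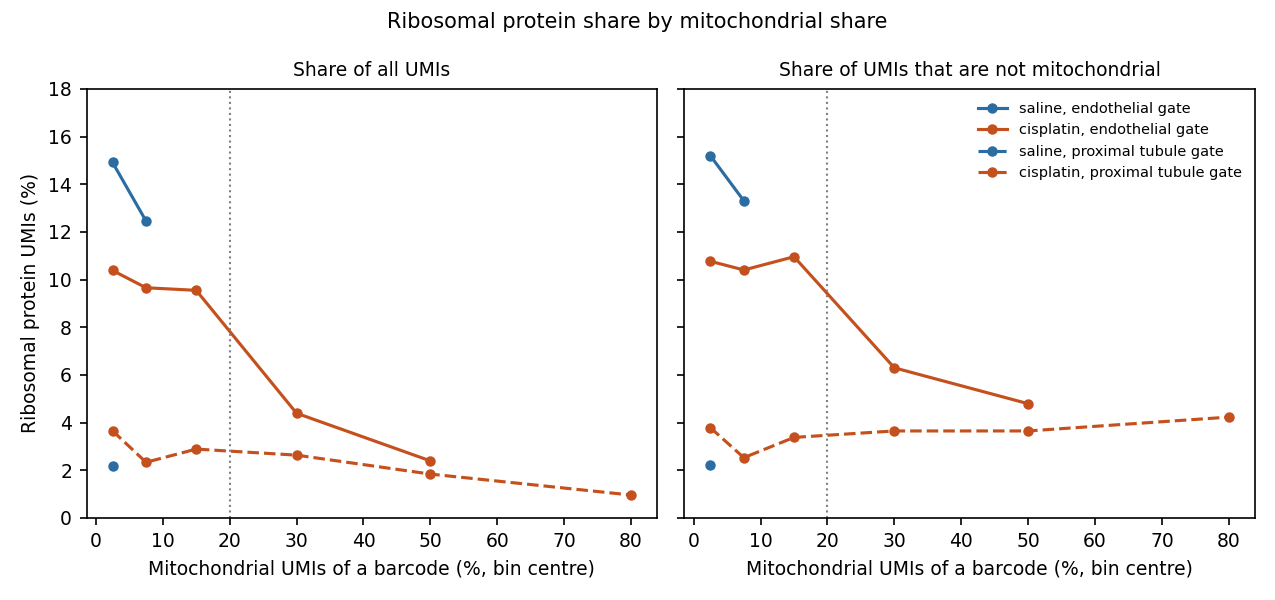
Share of ribosomal protein UMIs (y axis, %) against the mitochondrial share of a barcode (x axis, centre of each bin), out of all UMIs (left) and out of UMIs that are not mitochondrial (right), for bins of at least 20 barcodes; solid lines are the endothelial gate, dashed lines the proximal tubule gate, and the dotted line is the 20% limit. In the cisplatin endothelial gate the right panel is near 10.8% in the lowest bin and 11.0% from 10 to 20%. It is 6.30% from 20 to 40% and 4.79% from 40 to 60%. The 13 barcodes of that gate above 60%, which are not drawn, had 10.3%. The cisplatin proximal tubule gate stays between 2.53% and 4.23%.

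Deep barcodes and free RNA differed in the total and in which members made it up. Against barcodes of 1 to 100 UMIs, barcodes of 500 or more UMIs with at most 20% mt- UMIs were called higher for 79 of 82 members in saline (0 lower) and for 79 in cisplatin (0 lower). Of all genes 27.6% were higher and 30.4% lower in saline, and 28.3% and 11.0% in cisplatin. The median log2 ratio was 2.74 in saline, where all genes had -0.10, and 1.61 in cisplatin, where they had 0.25. The deep sums held different cells, with 450 of 627 saline and 184 of 1729 cisplatin barcodes in the endothelial gate. The part of that mix in the difference between the libraries was not tested. In saline the largest ratios were those of Rps23 at 11.3 (2410 CPM against 213), Rps18 at 11.0 and Rpl9 at 10.6. In cisplatin they were those of Rps28 at 5.45 (1314 CPM against 241), Rps29 at 4.52 and Rpl39 at 4.37. Rpl22l1 was at 10.3 in saline (470 CPM against 45.6) and at 2.12 in cisplatin (153 against 71.9).

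A set of 5 members had small ratios between deep barcodes and free RNA, and it was picked after its values had been seen. Rpl13a had 904 CPM in deep saline barcodes and 811 in free RNA, a ratio of 1.11, and 1191 and 741 in cisplatin, giving a ratio of 1.61. Rps15 had 1.17 and 1.30, Rpsa 1.58 and 1.77, Rpl10a 1.88 and 1.44, and Rpl28 2.29 and 1.62. Together these 5 genes held 3.85% of all member UMIs in the saline endothelial gate, 14.8% in saline free RNA and 15.4% in the saline proximal tubule gate. In cisplatin they held 5.18% in the endothelial gate, 11.8% in free RNA, 12.6% in the proximal tubule gate and 5.08% in the leukocyte gate. In the endothelial barcodes above 20% mt- UMIs they held 8.86%. The set was picked for small ratios between deep barcodes and free RNA, so its high share in free RNA follows from the choice. These shares therefore cannot show how like free RNA a gate is. The large subunit with its stalk moved the same way, from 54.0% of core subunit UMIs in the saline endothelial gate to 60.2% in free RNA and 63.2% in the proximal tubule gate. In the GENCODE models the 5 genes lay within the range of the other core genes by exon number (3 to 8, against 3 to 10) and by coding length (354 to 885 bases, against 75 to 1257). Their annotated transcripts reached further, from 2 to 19 against 1 to 12, as did those with a retained intron, from 0 to 7 against 0 to 6.

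**Figure D4:**
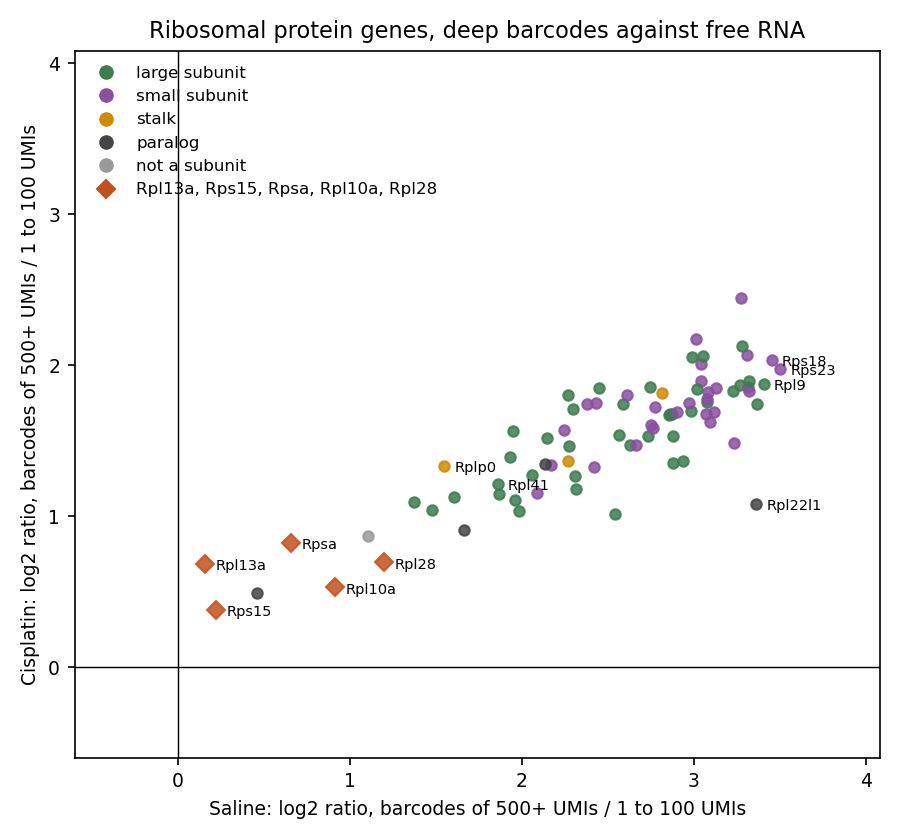
Log2 ratio of CPM, barcodes of 500 or more UMIs over barcodes of 1 to 100 UMIs, in saline (x axis) and cisplatin (y axis), with 1 point per member coloured by role and Rpl13a, Rps15, Rpsa, Rpl10a and Rpl28 as rust red diamonds. Every point lies above 0 on both axes. The diamonds lie at the lower left with saline ratios of 1.11 to 2.29, and Rpl22l1 lies at 10.3 in saline and 2.12 in cisplatin. The deep barcodes of the libraries hold different mixes of marker gates.

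Free RNA itself differed between the libraries. In barcodes of 1 to 100 UMIs 19 of 82 members were higher in cisplatin and 0 lower, where 14.4% and 20.7% of all 12375 genes tested were. The median log2 ratio was 0.38 over the members and -0.07 over all genes. Rpl15 had 110 CPM in saline and 270 in cisplatin, giving a ratio of 2.45 (2.16 to 2.79), and Rplp0 had 194 and 380, a ratio of 1.96 (1.77 to 2.17). Rps2 followed at 1.80, Rpl11 at 1.79 and Rpl27 at 1.82, and Rplp1 was higher at 1.63. Rpl36 (0.903), Rpl13a (0.914), Rpl38 (0.927) and Rpsa (0.929) were at the low end, none of them called. Rplp0 and Rpl15 were thus higher in free RNA as well as in the proximal tubule gate. The mt- share of these barcodes was 3.84% in saline and 30.6% in cisplatin, and Malat1 took 10.5% and 2.22%. Among UMIs that are not mt-, 63 members were higher, against 34.7% of all genes. The direction of the total depended on the depth chosen: the ratio was 1.22 for 1 to 100 UMIs, 0.845 for 1 to 20 and 0.953 for the next range, up to 300. Free RNA was estimated from proximal tubule markers at 3.30% of the UMIs of the endothelial gate in saline and 8.89% in cisplatin, and the endothelial ratio after its subtraction was 0.707.

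At matched depth, fewer members were detected per barcode in the endothelial gate of cisplatin than of saline. At a fixed depth this number depends on the share, so it is not a separate observation. After each barcode was thinned to 500 UMIs, the median number of members with a UMI in the endothelial gate was 40 in saline (quartiles 32 and 47) and 31 in cisplatin (21 and 41), and without thinning it was 56 and 61.5. In the proximal tubule gate it was 10 and 9, and in the cisplatin leukocyte gate 56. Endothelial barcodes above 20% mt- UMIs had a median of 9, as low as the proximal tubule gate. At matched depth the order of the libraries in the endothelial gate held in 3 of 4 depth ranges: medians of 10.9% and 7.22% from 500 to below 1000 UMIs, 15.5% and 7.24% from 2000 to below 4000, and 15.0% and 10.0% at 4000 or more. From 1000 to below 2000 UMIs it did not, with 11.6% over 129 saline and 12.9% over 21 cisplatin barcodes.

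Leukocyte markers came with the highest levels of almost every member. Against the endothelial gate of the same cisplatin library, 81 of 82 members were higher in the leukocyte gate, where 11.4% of all genes were. Rpl12 had the largest ratio at 3.76 (2721 CPM against 723), followed by Rpsa (3.46), Rpl39 (3.46), Rps26 (3.41) and Rplp0 (3.27). Rpl7 had the lowest interval at 1.59, and Rpl7l1, at 1.40 (0.779 to 2.41), was the member not called. Against the proximal tubule gate, the endothelial gate was higher for 76 members in saline, where 23.1% of all genes were. Rpl13a was the only member with a saline ratio below 1, at 0.953 (0.775 to 1.18).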

How the data were processed

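The authors deposited raw UMI counts per gene and barcode for both libraries, as whole numbers without normalization. Per the submitters' processing notes they came from Cell Ranger 6.0.1 and the mm10 build, whereas the matrix header lines carry version 4. The handling of reads shared by paralogs or pseudogenes is not stated in the labels or headers. The members, lists, gates and comparisons were chosen with earlier results of these data known.

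Counts were summed over barcodes per library and population and divided by all UMIs (CPM). Barcodes needed 500 UMIs and at most 20% mt- UMIs. Ratios have exact (Clopper-Pearson) 95% intervals, and log2 ratios had 0.5 UMI added; the calculation was checked on simulated counts. Named members were a fixed set, the 5 highest and 5 lowest in each comparison by the interval bound nearest 1, and a few chosen after their values were seen. Python 3.11.15, numpy 2.4.6, scipy 1.17.1 and pandas 2.3.3 were used. No doublets were removed. Results for a few genes under the naming rule are not reported here. Alternatives covered denominators, depth and mt- limits, gates, filters, folds, thinning to 500 UMIs and free RNA subtraction.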

Additional observations from a re-analysis of the deposited data

Results flagged for a closer look

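The pooled ribosomal protein share moved in opposite directions in the main marker gates: the cisplatin to saline ratio was 0.680 in the endothelial gate and 1.12 in the proximal tubule gate. The median over single barcodes did not, as it was lower in cisplatin in the proximal tubule gate too (2.14% in saline and 1.92% in cisplatin). Between barcodes above and at most 20% mt- UMIs of the cisplatin library, the share of UMIs that are not mt- had a ratio of 0.603 in the endothelial gate and 1.17 in the proximal tubule gate. At the level of single members, 8 were called lower in the endothelial gate and higher in the proximal tubule gate, where 27 of 6993 genes tested in both (0.386%) were. The members had 37 lower calls in the endothelial gate and 17 higher calls in the proximal tubule gate. The 8 have to be read against these counts and not against the share of all genes alone. With 1 library per treatment, none of these differences was tested.

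Rps27l, a p53 target that the choice of members leaves out, had 375 UMIs (333 CPM) in saline and 1135 UMIs (396 CPM) in cisplatin in barcodes of 500 or more UMIs with at most 20% mt- UMIs, a ratio of 1.19 (1.06 to 1.34) that is short of a call. Without the mt- limit it had 332 and 306 CPM and a ratio of 0.920 (0.820 to 1.03), an interval that includes 1. In those barcodes mt- UMIs, which count in the CPM total, were 2.46% in saline and 23.8% in cisplatin. A ratio per UMI that is not mt- was not calculated for Rps27l.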

How the results depend on the processing

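No paired analysis was possible because each treatment had 1 library. The share ratio over all deep barcodes (0.612) was 0.653 per UMI that is not mt-, 0.655 without Malat1 as well, 0.442 as a mean over barcodes, 0.676 from 1000 UMIs, 0.715 at a 10% mt- limit and 0.443 after thinning. The endothelial ratio (0.680) was 0.707, 0.694, 0.748, 0.656 and 0.747 under the same choices apart from the mt- limit, 0.671 from 300 UMIs and 0.707 after subtraction of free RNA. Further choices for this gate were made after seeing the data. A 5% mt- limit gave 0.696 and keeping at least 90% endothelial marker UMIs gave 0.663. Leaving out the deepest barcode gave 0.697, the 5 deepest 0.688 and barcodes with any podocyte list UMI 0.878. The parts led by capillary genes, by Plvap, Fabp4 and Igfbp3 and by Ehd3 had 0.707, 0.780 and 0.881. The part led by Eln, Calca and Thbs2 had 0.616, from only 3 cisplatin barcodes. The proximal tubule ratio (1.12) was 1.21 per UMI that is not mt-, 1.17 without Malat1, 1.04 as a mean over barcodes, 1.21 from 300 UMIs, 1.02 from 1000, 1.04 after thinning and, both added later, 1.68 at a 5% mt- limit and 1.08 without the 5 deepest barcodes. The free RNA ratio (1.22) was 1.69 and 1.55 for these denominators and 1.12 for 1 to 50 UMIs, and it turned to 0.845 for 1 to 20 and 0.953 for the next range, up to 300; the cause was not tested.

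Counts of called members fell when each member was divided by ribosomal protein UMIs, which centres the members by construction: from 49 to 2 lower over all deep barcodes, from 37 to 3 in the endothelial gate, from 17 to 11 higher in the proximal tubule gate, from 19 to 2 in free RNA, from 82 to 0 lower for the mt- split, and from 79 to 16 in saline and 3 in cisplatin for deep barcodes against free RNA. At 2-fold the first 4 counts were 12, 4, 5 and 1. The endothelial count was 6 without podocyte list UMIs and 15 in the part led by Plvap, Fabp4 and Igfbp3. The proximal tubule count was 4 from 1000 UMIs, the free RNA count 63 per UMI that is not mt- and 43 at a looser fold limit, and the mt- split count 14 in the proximal tubule gate alone.

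Among the values for single genes, 38 changed direction, most of them on the scale of ribosomal protein UMIs. On that scale Rplp2 was at 1.09 over all deep barcodes. For the mt- split Rps15 was at 1.87, Rpl13a 1.59, Rpl7l1 2.04, Rpsa 1.53, Rpl28 1.49, Rplp0 1.05, Rplp1 1.09, Rpl5 1.24, Rpl11 1.11, Rpl41 1.29, Rps2 1.11, Rpl22l1 1.07 and Rpl36al 1.12. For deep barcodes against free RNA in saline Rpsa was at 0.276, Rpl10a 0.329, Rplp0 0.511, Rplp1 0.839, Rps6 0.940, Rpl5 0.486, Rpl11 0.866, Rpl41 0.633, Rps2 0.936 and Rpl36al 0.766. In cisplatin Rpl13a was at 0.559, Rpl28 0.562, Rpsa 0.615, Rplp0 0.876, Rplp1 0.895, Rpl5 0.715, Rpl11 0.835, Rpl41 0.806, Rps2 0.872, Rpl22l1 0.738 and Rpl36al 0.886. Per UMI that is not mt-, the mt- split gave Rps15 1.03 and Rpl7l1 1.13, and the proximal tubule gate alone gave Rpl7l1 1.07. The saline proximal tubule sum of 2765 member UMIs limits its single members.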
